A study of Mus musculus with 2 samples.

Results

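C1q-high macrophages are tumor macrophages that carry high levels of the transcripts for complement component C1q. They were taken here from single-cell RNA libraries of live CD45+ cells, the leukocytes, of B16F10 melanomas grown under the skin of C57BL/6 mice. UMIs are unique molecular identifiers, 1 per captured transcript. A cell barcode with 200 or more detected genes and no more than 10% of UMIs from mitochondria was a member if C1qa, C1qb and C1qc together gave at least 10 UMIs and at least 0.2% of its UMIs. Members also had at most 1 UMI over Cd3e, Cd3d and Cd3g, at most 1 over Cd79a and Cd79b, fewer than 3 over Mki67 and Top2a, and less than 0.1% of UMIs over Mlana, Pmel, Tyrp1 and Dct. This gave 1136 members of 12815 barcodes that passed the filters and of 13817 in all. Of these, 488 came from the control library, from Usp18f/f mice, in which recombination sites flank Usp18 and no Cre is present. The other 648 came from the library labelled knockout, from Usp18f/f LysM-Cre mice, in which Cre recombinase is driven from the Lyz2 locus and is meant to delete Usp18 in myeloid cells. LysM-Cre also acts in neutrophils and other myeloid cells and is not restricted to macrophages. Each group was 1 pool of 4 tumors taken at day 14 and gave 1 library. The comparison addresses how these macrophages differ between the labelled genotypes.

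C1q, made of the A, B and C chains, starts the classical complement pathway and also coats dying cells so that phagocytes take them up. In tumors, macrophages are a main source of C1q, and such cells often carry Trem2, a lipid-sensing receptor, and Gas6, a bridge between dying cells and the receptors Axl and Mertk. Usp18 is a protease that removes the ubiquitin-like protein Isg15 from its targets and, apart from that, binds the type I interferon receptor and dampens its signal. Interferon-stimulated genes are the antiviral and regulatory genes that this signal switches on.

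Because each group has 1 library, no test between the groups was possible, and cells of a pool are not replicates. All intervals are 95% intervals for counting error and do not cover differences between mice. Levels are CPM, the summed UMIs of a gene in the members of a library for each 1000000 UMIs summed over all genes. Pairs of values give the control library first and the library labelled knockout after it. A log2 ratio is log2 of (CPM + 5) over (CPM + 5), labelled knockout over control, and a gene counted as measured with at least 20 UMIs over both libraries (10388 genes).

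The members held 4761560 UMIs among control cells and 6373636 among the others, with medians of 9020 and 8657 UMIs per cell. Median mitochondrial shares were 5.09% and 4.21%. No barcode sequence was shared between the members of both libraries, and 8 were shared over all barcodes. The labels name no sex, but both pools mixed 2 kinds of cell, Xist cells (UMIs of Xist and none of Ddx3y, Eif2s3y, Kdm5d or Uty) and Y cells (the reverse). Xist cells made up 108 of 356 such members (30.3%) in the control library and 433 of 547 (79.2%) in the other. The kinds of cell come from different animals and were unevenly mixed, so each main value is also given within each kind. How many of the 4 tumors gave each kind is not known, and the sex and the animal cannot be told apart.

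Usp18 went against the label. Its level in the members was 21 CPM among control members (17.1 to 25.5, 100 UMIs) and 96 CPM among members of the library labelled knockout (88.6 to 104, 612 UMIs), which was 4.57-fold higher (3.70 to 5.71). In Xist cells the levels were 15 and 111 CPM, and in Y cells they were 24.1 and 32.5 CPM, so the gap was large in Xist cells and small in the others. A cluster of 41 members with high interferon genes (cluster 7), of which 40 came from the library labelled knockout, held much of it, and without these cells the ratio was 2.69-fold (2.12 to 3.45). After each cell was thinned to 1000 UMIs, 1.44% (0.581 to 2.95) and 9.92% (7.73 to 12.5) of members held a Usp18 UMI, against 1.37% and 0.893% of B cells. The B cells serve here as a measure of free RNA, but were limited to at most 2 UMIs over Csf1r, Lyz2 and Cd68. This limit favors B cells with little free macrophage RNA, so the measure may be too low. Transcripts that B cells make themselves would in turn make it too high. Thinned B cells held a median of 4 and 5 UMIs of the interferon-stimulated list described below, beside 4 and 9 in thinned members. Without thinning the shares of members were 13.1% and 31.5%. The cells had held, at the median, 9020 and 8657 UMIs (members) or 1581 and 1867 UMIs (B cells). The library chemistry reads the 3′ ends of transcripts, and a 3′ tag outside a deleted part would not check the deletion. The library is hence named by its label only, and every direction refers to that label.

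Lyz2, which encodes lysozyme M and carries Cre in LysM-Cre mice, went with the labels. It measured 8769 CPM in the control members and 14.7 CPM in the others (94 UMIs), 595-fold lower (486 to 736). Levels were 9495 and 18.9 CPM in Xist cells and 8713 and 6.85 CPM in Y cells, so both kinds showed the lower level. Lyz1, its near-identical neighbor on chromosome 10 (117287797 to 117292868, minus strand, GRCm38), measured 49.6 and 198 CPM. The counting could split reads between the copies, so this value is uncertain.

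Markers of the name were present. Beside the C1q genes used to choose the cells, Ms4a7, a membrane protein of resident-type macrophages, stood at 734 and 832 CPM. Trem2 stood at 511 and 583 CPM and Gas6 at 148 and 133 CPM. Monocytes of the same libraries, defined by Ly6c2 and Chil3 transcripts with C1q below 0.05% of UMIs, held 38.3 and 99.6 CPM of Ms4a7, 126 and 86.7 of Trem2 and 0.451 and 1.70 of Gas6. All 3 markers were thus higher in the members than in monocytes, in both libraries. The receptor Csf1r, on which macrophages depend, was at 524 and 365 CPM in members and 501 and 406 CPM in monocytes. Cd163, a hemoglobin scavenger of resident macrophages in other tissues, was low at 4.41 and 5.65 CPM. After thinning, no member held a UMI of Vsig4, a complement receptor of resident macrophages (0 of 486 and 0 of 645 cells, where a limit of 3 cells allows shares of cells with a UMI of up to 0.617% and 0.465%). Without thinning, 0.205% and 0% of members held one.

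Transcripts of lymphocytes, neutrophils, melanoma cells and stroma were low, in part because the rule caps Cd3, Cd79 and melanoma UMIs, whereas monocyte and dendritic cell markers were not. The summed level of 15 T-cell markers was 83 and 117 CPM, of 12 natural killer markers 45.6 and 55.4, of 10 B-cell markers 51.5 and 36.6 and of 10 neutrophil markers 188 and 149.7. Of the defining markers, Ly6g of neutrophils was at 0 in both libraries, and Ebf1 of B cells and Siglech and Ccr9 of plasmacytoid dendritic cells were at 0 in the library labelled knockout. The 12 melanoma markers summed to 103 and 108 CPM, with the gene for the pigment-cell regulator Mitf, which macrophages also express, giving 55.2 and 62.1 of it. The 12 markers of stroma and endothelium summed to 16.6 and 35.1 CPM, with Col1a1, Col1a2 and Pdgfra at 0 in both libraries. Pecam1 led in the control library (5.25 CPM) and Kdr in the other (20.6 CPM). Dendritic cell markers reached 495 and 839 CPM, led by the interferon-stimulated gene Bst2, and 57.6% and 77.2% of members held 3 or more of their UMIs. The 20 monocyte markers summed to 4885 and 5773 CPM, led by S100a6, none was at 0, and 86.7% and 86.3% of members held 3 or more of their UMIs. The part of these transcripts in the other results was not tested. Scrublet scores placed 22 (4.51%) and 13 (2.01%) members among likely doublets. These were kept, as the rule gives the cells.

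The limits of the rule cut through a gradual range. The 41 members with a C1q share between 0.2% and 0.25% had Ms4a7 at 371 CPM, Trem2 at 356 CPM and Ly6c2 at 490.0 CPM. The 62 cells just outside, with a share of 0.15% to 0.2%, had Ms4a7 at 179 CPM, Trem2 at 201 CPM and Ly6c2 at 646 CPM. The 80 cells with 5 to 9 C1q UMIs at a sufficient share were shallow cells (median 1039 UMIs), and their Ms4a7 level was 757 CPM. The median member had 67 C1q UMIs in the control library and 63 in the other.

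Members were a larger part of the library labelled knockout. They made up 6.89% of 7086 filtered control barcodes (6.31% to 7.50%) and 11.3% of 5729 (10.5% to 12.2%) in the other library, a ratio of 1.64 (1.47 to 1.84). Within Xist cells the shares were 6.91% and 11.8%, and within Y cells 8.96% and 19.8%. The limit on Mki67 and Top2a had removed 176 cycling cells beside the 488 control members (23.2% to 30.0% of both, as the interval) and 216 beside the 648 others (22.1% to 28.0%), so the intervals overlapped. A share is relative to all sorted cells, so a lower number of other cells would raise it as well.

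Interferon-stimulated genes were higher in the members of the library labelled knockout across the whole list. All 60 measured genes of the list had a log2 ratio above 0, against 43.8% of all 10388 measured genes. Of the 60, 31 were at least 2-fold higher, against 1.07% of all measured genes. The median log2 ratio was 1.03, beside -0.03 for all measured genes. The list excludes Usp18. Without the 41 cells of cluster 7, 58 of 60 were above 0 (45.5% of all), 24 were at least 2-fold higher (0.674% of all) and the median was 0.72.

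Rsad2, which encodes the antiviral enzyme viperin, had the highest ratio of the list. It measured 33.8 CPM among control members (28.8 to 39.5, 161 UMIs) and 612 CPM among members of the library labelled knockout (593 to 631, 3900 UMIs), 18.1-fold higher (15.5 to 21.3). Cluster 7 held 64.5% of these UMIs of the library labelled knockout, and the ratio without it was 7.84-fold (6.59 to 9.40). Xist cells held 41.7 and 708 CPM and Y cells 25.9 and 116 CPM. Both kinds of cell were therefore higher in the library labelled knockout, with the larger gap in Xist cells.

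Isg15, the ubiquitin-like protein that Usp18 removes from its targets, measured 85.7 CPM among control members (77.6 to 94.4, 408 UMIs) and 732 CPM among members of the library labelled knockout (711 to 753, 4664 UMIs), 8.54-fold higher (7.72 to 9.47), or 4.20-fold (3.77 to 4.69) without cluster 7. The enzymes that attach it were also higher, with Ube2l6, its conjugating enzyme, at 18.5 and 58.2 CPM and Herc6, its ligase, at 18.5 and 60.6 CPM. Uba7, its activating enzyme, differed less, at 25.2 and 32.3 CPM. Of the 6 measured genes of this pathway other than Usp18, 5 had a ratio above 0 and 3 were at least 2-fold higher, against 43.8% and 1.07% of all measured genes. Without cluster 7, 2 were at least 2-fold higher. Arih1, a ubiquitin ligase, stood at 70.8 and 69 CPM.

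The RNA-binding antiviral proteins of the Ifit family formed the next group. Ifit1 measured 24.4 and 229 CPM, 9.42-fold higher (7.79 to 11.5). Ifit3 measured 27.9 and 231 CPM, 8.29-fold higher (6.93 to 9.97), and Ifit2 36.8 and 263 CPM. Without cluster 7 the ratios were 4.60, 4.54 and 3.62 in this order. Ifit3 and Ifit3b are near-identical copies, so the split between them is uncertain. The 2′-5′-oligoadenylate synthetase genes, which sense double-stranded RNA, ranged from a log2 ratio of 0.74 for Oas2 to 3.05 for Oasl1, a relative without synthetase activity that represses Irf7 translation. Mx1, an antiviral GTPase, measured 27.1 and 132 CPM. The ratio of Oasl1 was 6.86 and that of Mx1 3.07 without cluster 7.

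Transcription factors of the pathway differed in size. Irf7, the factor that amplifies interferon responses, measured 72 and 336 CPM, 4.67-fold higher (4.16 to 5.24), with 81.3 and 375 CPM in Xist cells and 61.1 and 176 CPM in Y cells. Stat2 and Irf9, whose products act together downstream of the interferon receptors, were closer between the libraries. Stat2 measured 47 and 90.4 CPM and Irf9 49.6 and 61.5 CPM. In Y cells Irf9 was at 49.6 and 42 CPM, a direction opposite to that in all members. The receptor genes were closer still, with Ifnar1 at 141 and 125 CPM and Ifnar2 at 99.8 and 103 CPM. Over the 17 measured genes of receptor signalling other than Usp18, the median log2 ratio was 0.05. At least 2-fold higher was 1 of them (1.07% of all measured genes were), Socs1, a feedback inhibitor (8.61 and 30.0 CPM). Without cluster 7 the ratio of Socs1 was 2.28 and no gene passed 2-fold by the log2 ratio.

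The interferon-stimulated list was higher in both kinds of cell but not to the same extent. In Xist cells all 60 genes had a ratio above 0 (45.6% of all measured genes did), 39 were at least 2-fold higher (1.97% of all) and none was 2-fold lower (0.905% of all). The median there was 1.15. In Y cells 51 of 60 did (47.0% of all), 16 were at least 2-fold higher (0.809% of all), and the median was 0.50. Of the cells of cluster 7 in the library labelled knockout 35 were Xist cells and 2 were Y cells, and without this cluster the medians were 0.85 and 0.43. Genes with opposite directions included Gbp2, an interferon-induced GTPase, at 33.2 and 147 CPM in Xist cells and 91.9 and 54.8 CPM in Y cells, and Ifitm3, a membrane protein that blocks virus entry, at 1069 and 2241 CPM in Xist cells and 1087 and 997 CPM in Y cells. The difference between the kinds of cell was not tested.

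**Figure D1:**
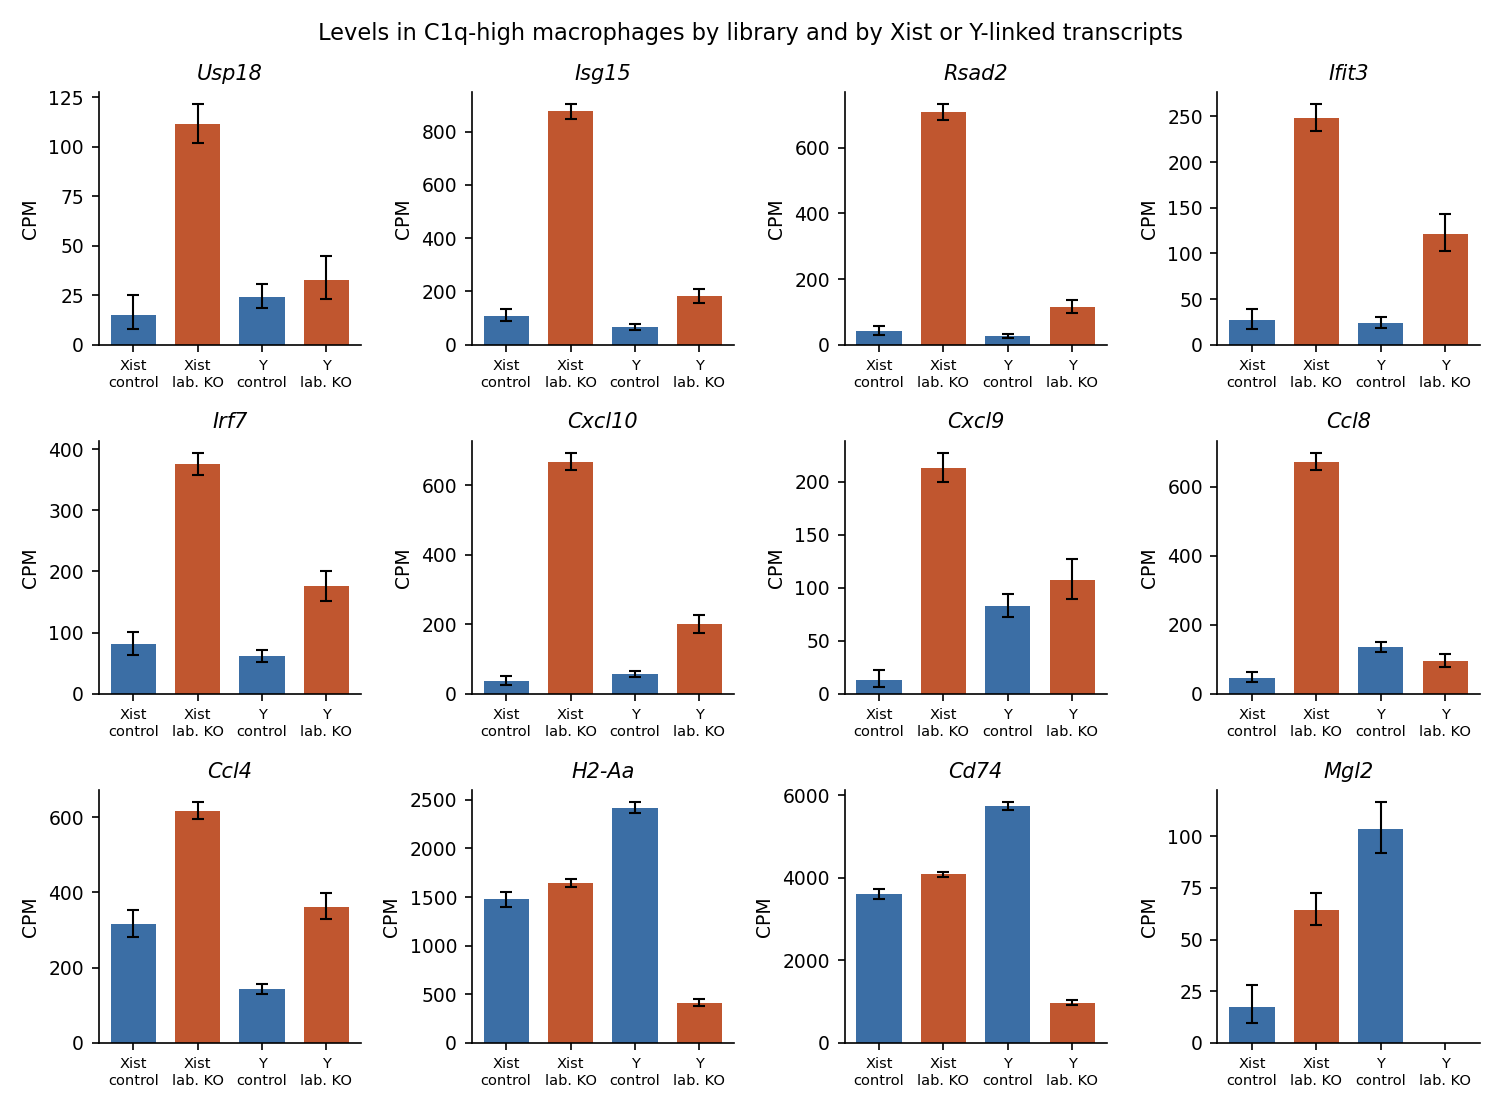
CPM of 12 genes in C1q-high macrophages of the control library (blue) and the library labelled knockout (orange), for Xist cells and Y cells. Bars are summed levels and error bars 95% Poisson intervals (counting error only). Isg15, Rsad2, Ifit3, Irf7 and Cxcl10 were higher in the library labelled knockout in both kinds of cell, whereas H2-Aa, Cd74 and Mgl2 were lower only in Y cells, where Mgl2 was at 0 UMIs.

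The distribution over cells showed a general shift and a high tail. Per cell thinned to 1000 UMIs, the median number of interferon-list UMIs was 4 in the control members (highest 86) and 9 in the members labelled knockout (highest 132). The lower quartile of the latter, 5 UMIs, lay above the control median. In Xist cells the medians were 4 and 10 UMIs, and in Y cells 4 and 5. Isg15 UMIs were found in 7.41% (5.24 to 10.1) and 27% (23.6 to 30.6) of thinned members, against 0.421% and 1.79% of thinned B cells. Without thinning the shares in members were 27% and 56.8%. Most members thus held no Isg15 UMI at this depth in either library.

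**Figure D2:**
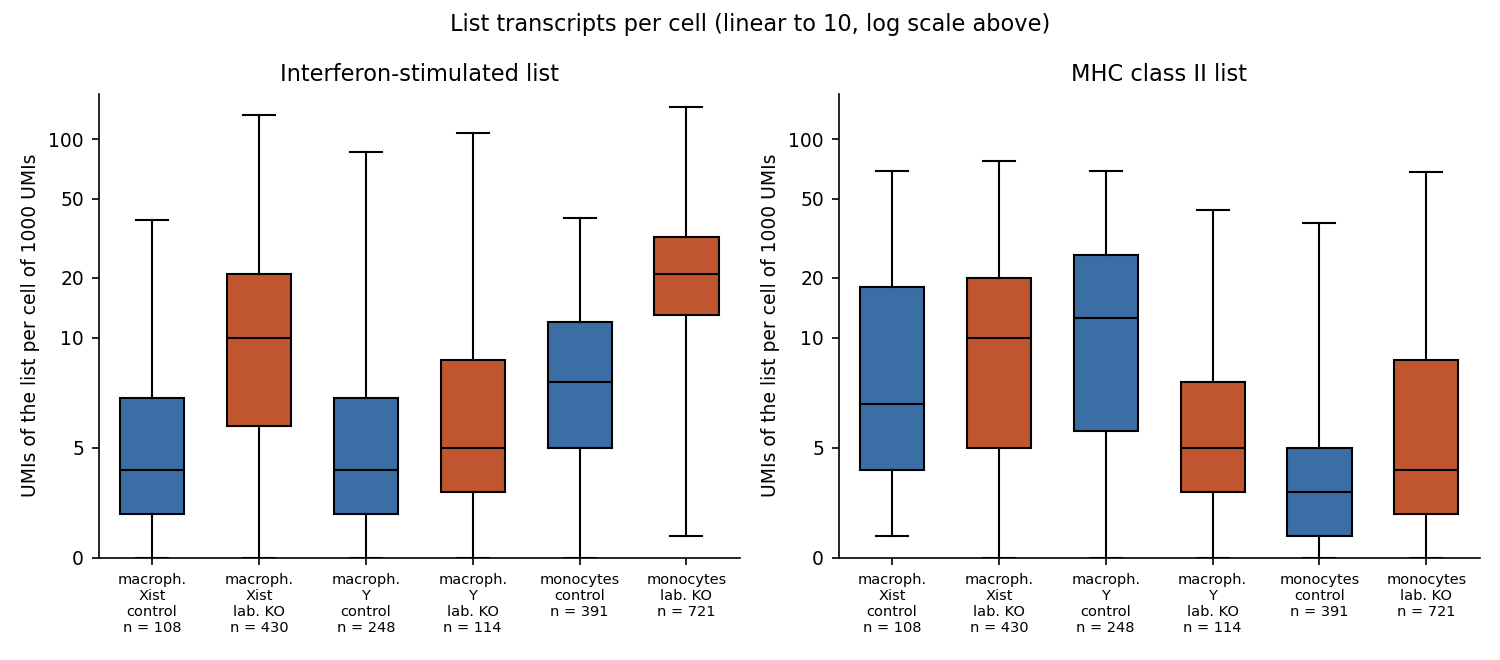
UMIs of the interferon-stimulated list (left) and the MHC class II list (right) per cell thinned to 1000 UMIs, on an axis that is linear to 10 and logarithmic above. Boxes span the quartiles with the median as a line, and whiskers reach the lowest and highest cell. The median of the interferon list was 4 and 10 in macrophages with Xist, 4 and 5 in those with Y-linked UMIs, and 8 and 21 in monocytes.

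The sequences at the starts of these genes are shown because the list was higher as a group and shares a known DNA element, bound by interferon-activated factors. The element was searched as GAAA, any 2 bases, then GAAA, on both strands, in a window of the 250 bases before each gene start. It occurred in 17 of the 45 interferon-list genes that have an entry in the promoter table (37.8%), against 3.46% of all 27025 genes of that table. A match describes the sequence and is no evidence of binding. Stretches from genes with high ratios follow, 5′ to 3′ on the strand of the gene, from RefSeq on GRCm38.p6, with the match in capitals (overlapping matches run together).
Rsad2, chr12:26456538-26456597, minus strand: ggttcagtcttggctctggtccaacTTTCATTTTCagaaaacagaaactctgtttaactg
Isg15, chr4:156200850-156200909, minus strand: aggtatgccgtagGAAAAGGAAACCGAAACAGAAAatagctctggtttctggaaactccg
Ifit1, chr19:34640779-34640838, plus strand: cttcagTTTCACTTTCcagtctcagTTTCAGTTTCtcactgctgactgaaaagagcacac
Ifit3, chr19:34583382-34583441, plus strand: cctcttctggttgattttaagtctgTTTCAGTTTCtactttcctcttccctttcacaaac
Ifit3b, chr19:34607778-34607837, plus strand: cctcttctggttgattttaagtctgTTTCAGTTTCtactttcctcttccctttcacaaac
Isg15 held 3 overlapping matches that end 56 bases before its start, and its member log2 ratio was 3.02. The 2 matches of Ifit1 lie on the opposite strand, as does that of Rsad2, and the nearer one ends 75 bases before the start. Ifit3 held 2 matches in its window, of which the one nearer the start is shown. The stretches of Ifit3 and Ifit3b are letter for letter the same, and Ifit3b measured 4.62 and 59.6 CPM.

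Genes that respond mainly to interferon gamma, the type II interferon of T and natural killer cells, were higher by less. Of 22 measured genes, 19 had a log2 ratio above 0 and 6 were at least 2-fold higher, with a median of 0.80. Of all measured genes 43.8% were above 0 and 1.07% at least 2-fold higher. Without cluster 7, 19 genes were above 0, 1 was at least 2-fold higher, and the median was 0.47. In Xist cells 21 of 22 were above 0 (45.6% of all measured genes), with a median of 0.95. In Y cells 13 of 22 were (47.0% of all), with a median of 0.28. Ly6a, a surface protein, measured 104 and 457 CPM, and Iigp1, a GTPase against intracellular pathogens, 23.5 and 77.7 CPM (a ratio of 2.17 without cluster 7). Ciita, the master activator of MHC class II genes, went the other way with 38 and 17.9 CPM. Cxcl9, a chemokine that draws activated T cells, measured 108 and 189 CPM, but the kinds of cell differed, with 12.8 and 213 CPM in Xist cells and 82.6 and 107 CPM in Y cells. Cd274, which encodes the checkpoint ligand PD-L1, measured 41.2 and 86.4 CPM.

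Chemokine genes were among the more divergent. Of 21 measured, 19 had a ratio above 0 (43.8% of all genes did), 8 were at least 2-fold higher (1.07% of all) and 1 was 2-fold lower (0.183% of all), with a median of 0.66. In Xist cells 10 were at least 2-fold higher (1.97% of all) and 2 lower (0.905% of all), with a median of 0.96. In Y cells 5 were at least 2-fold higher (0.809% of all) and 4 lower (1.16% of all), with a median of 0.36. Cxcl10, which draws the same T cells as Cxcl9, measured 61.5 CPM among control members (54.7 to 69, 293 UMIs) and 618 CPM among members of the library labelled knockout (599 to 637, 3938 UMIs), 10.0-fold higher (8.91 to 11.3), or 5.76-fold (5.05 to 6.59) without cluster 7. The monocyte-attracting chemokines were higher together, with Ccl2 at 1496 and 3043 CPM, Ccl7 at 764 and 1945 CPM and Ccl12 at 396 and 1058 CPM. Ccl4, a chemokine of activated macrophages, measured 198 and 638 CPM. Ccl8, found in the members and nearly missing from control monocytes (1.35 CPM), measured 149 and 520.4 CPM, but it was higher only in Xist cells (46 and 673 CPM) and not in Y cells (136 and 95.1 CPM). Ppbp, a platelet chemokine, was lower, at 104 and 43.8 CPM, in cells of both kinds.

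MHC class I genes, which present peptides to CD8 T cells, were higher by small amounts. Of 19 measured genes 18 had a ratio above 0 (43.8% of all genes did), and 3 were at least 2-fold higher (1.07% of all), or 1 without cluster 7. The classical genes H2-K1 and H2-D1 measured 1159 and 1566 CPM and 1424 and 1972 CPM, and the non-classical gene H2-Q7 measured 51.7 and 159 CPM. In Y cells the median of the list was 0.11, against 0.69 in Xist cells. The H2-Q genes are near copies of each other, so their separate values are uncertain.

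MHC class II genes, which present peptides to CD4 T cells, were lower in the members labelled knockout when all were summed, but not in both kinds of cell. Of 12 measured genes 9 had a ratio below 0, against 56.2% of all measured genes, and none was at least 2-fold lower (0.183% of all were). The median log2 ratio was -0.48. H2-Aa, the alpha chain of I-A, measured 2233 CPM among control members (2191 to 2276, 10633 UMIs) and 1372 CPM among members of the library labelled knockout (1343 to 1401, 8742 UMIs), 1.63-fold lower (1.58 to 1.68). In Xist cells its levels were 1475 and 1643 CPM, and in Y cells 2418 and 412 CPM. Cd74, the invariant chain that guards the peptide groove, followed the same pattern with 3599 and 4085 CPM in Xist cells and 5743 and 966 CPM in Y cells. The Y cells of the library labelled knockout were thus the lowest of the 4 sets of members and those of the control library the highest.

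The other class II genes repeated this. In Xist cells 10 of 12 genes had a ratio above 0 (45.6% of all measured genes did) and the median was 0.24. In Y cells 10 of 12 were below 0, against 53.0% of all measured genes, and 9 were at least 2-fold lower, against 1.16% of all. The median there was -1.58. H2-DMb1, which helps load peptides, stood at 183 and 241 CPM in Xist cells and 282 and 76.2 CPM in Y cells. Ciita stood at 31 and 21.4 CPM in Xist cells and at 41.5 and 2.57 CPM in Y cells, where it rested on 3 UMIs in the library labelled knockout. The level of Ciita was thus lower in both kinds of cell. In Xist cells of the control library, where 3 UMIs stand for 3.21 CPM, it also rested on few UMIs. Whether Ciita differed from the class II genes in Xist cells was not tested. Among the genes for lysosomal enzymes of antigen processing, Ctss (1455 and 1510.1 CPM) and Lgmn (1699 and 2057 CPM) were not lower in Y cells. Ifi30 did follow, at 526 and 615 CPM in Xist cells and 528 and 389 CPM in Y cells. Mgl2, a lectin found on dendritic cells and some macrophages, had the same pattern as the class II genes, at 17.1 and 64.5 CPM in Xist cells and 104 CPM (280 UMIs) against 0 UMIs in Y cells. A floor of 3 UMIs for the latter stands for 2.57 CPM, against which the level was at least 40.4-fold lower.

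Class II promoters carry a conserved Y box, whose core CTGATTGG is bound by the factor NF-Y. Searched on both strands in the same windows, it occurred in 3 of the 10 class II list genes with an entry (30.0%), against 4.43% of all genes with an entry. The stretches of these genes are shown 5′ to 3′ on the strand of the gene, from RefSeq on GRCm38.p6, with the core in capitals.
H2-Aa, chr17:34287842-34287899, minus strand: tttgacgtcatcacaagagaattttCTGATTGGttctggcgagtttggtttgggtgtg
H2-Eb1, chr17:34305780-34305837, plus strand: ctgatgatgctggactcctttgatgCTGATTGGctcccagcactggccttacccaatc
H2-Oa, chr17:34092308-34092365, plus strand: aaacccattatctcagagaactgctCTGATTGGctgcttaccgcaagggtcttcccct
The cores ended 43, 54 and 38 bases before the gene starts, so they lay at similar distances. H2-Eb1, the beta chain of I-E, measured 1158 and 1494 CPM in Xist cells and 2267 and 381 CPM in Y cells. H2-Oa, part of the regulator of peptide loading, was low throughout, with 5.67 and 3.61 CPM over all members.

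The lists that describe the macrophage program differed little between the libraries when all members were summed. Over 17 measured complement genes the median log2 ratio was 0.14. This list includes the C1q genes that chose the cells, and its median was the ratio of C1qa. It is therefore not separate from the rule. Only Cfb, factor B of the alternative pathway, was at least 2-fold higher by the log2 ratio (1.07% of all measured genes were), from 1.47 to 8.79 CPM. The C1q genes themselves, which chose the cells, stood at 2747 and 3021 CPM, 3406 and 3739 CPM and 1970.4 and 2088 CPM. The list of lipid handling and lysosome genes had a median of 0.04 over 31 genes, with none 2-fold apart. Its members included Apoe, the lipid carrier, at 6798 and 5824 CPM, Ctsd, a lysosomal protease, at 2747 and 2881 CPM, and Fabp5, a fatty-acid binder, at 1283 and 2531 CPM. Fabp5 was higher in Xist cells (1390 and 3062 CPM) and not in Y cells (1284 and 1111 CPM). The 27 scavenger and iron genes had a median of 0.02, with Mrc1, the mannose receptor, at 731 and 730.2 CPM. Mrc1 was higher in Xist cells (587 and 774 CPM) and lower in Y cells (769 and 689 CPM). The ferroportin gene Slc40a1, which exports iron, was lower at 44.5 and 19.8 CPM.

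Genes for the uptake of dying cells differed little when all members were summed. Of 20 measured, 15 had a ratio below 0, against 56.2% of all measured genes, with a median of -0.16, and none was 2-fold apart. The counting interval of the median, taken as the median of the genes' bounds on the log2 scale, spanned 0 (-0.34 to 0.03). Mertk, the receptor tied to clearance, measured 57.8 and 39.7 CPM, Axl 138 and 129.6 CPM and Itgb5, an integrin chain that binds dying cells, 166 and 105 CPM. The direction was not shared by the kinds of cell: the list median was -0.40 in Xist cells and 0.12 in Y cells. The same held for the lipid and lysosome list (-0.16 and 0.20) and the macrophage identity list (-0.36 and 0.26). Apoe, for example, measured 8614 and 5509 CPM in Xist cells and 5860.5 and 7094 CPM in Y cells.

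**Figure D3:**
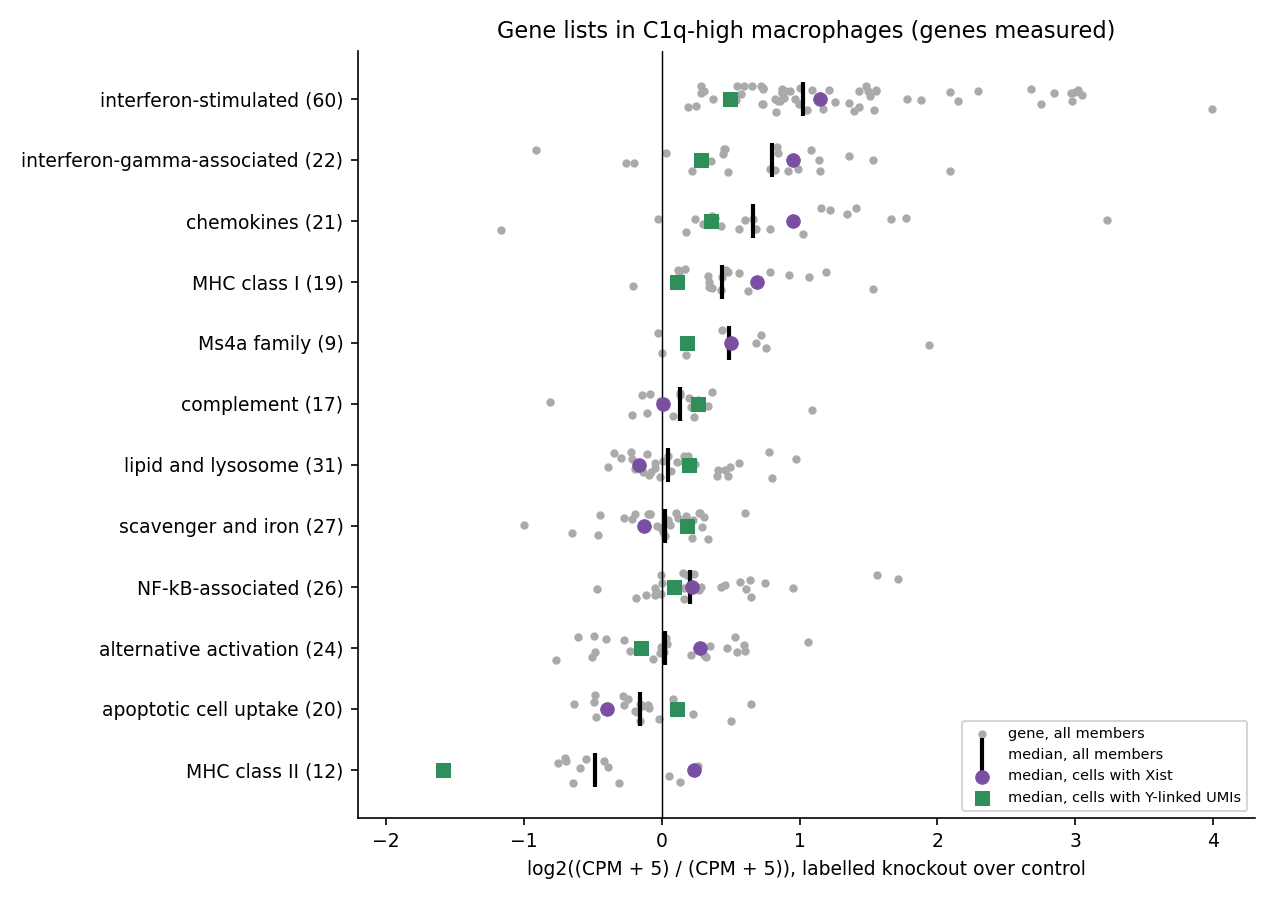
Log2 ratios, labelled knockout over control, of the measured genes (grey) of 12 lists in C1q-high macrophages, with the list median over all members (black bar), Xist cells (circle) and Y cells (square). Numbers in brackets are measured genes. The interferon-stimulated list lies highest (1.03), and the MHC class II list splits between 0.24 and -1.58.

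The macrophage identity list was mixed. Of 27 measured genes 15 had a ratio above 0 (43.8% of all genes did), with a median of 0.04. Fcgr1 was at least 2-fold higher (1.07% of all genes were), and Lyz2 and Cx3cr1 were at least 2-fold lower (0.183% of all). Cx3cr1, the fractalkine receptor, measured 309.8 CPM among control members (294 to 326, 1475 UMIs) and 142 CPM among members of the library labelled knockout (133 to 151, 903 UMIs), 2.19-fold lower (2.01 to 2.38), with 421 and 111 CPM in Xist cells and 259 and 238 CPM in Y cells. The lower level thus lay in Xist cells. The next lowest ratios were those of Tgfbr1, a receptor for TGF-beta, at 126 and 61 CPM, and Csf1r, at 524 and 365 CPM. Csf1r was lower in both kinds of cell (590.3 and 372 CPM in Xist cells and 502 and 357 CPM in Y cells).

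Genes of monocytes and of activation were mixed. Over the 20 measured monocyte markers the median log2 ratio was 0.07, with 11 above 0 and 9 below. At least 2-fold higher were 3 of them (1.07% of all genes), and 1, Ear2, a ribonuclease (42.2 and 16.5 CPM), was 2-fold lower (0.183% of all). Ly6c2, the surface protein of blood-derived monocytes, measured 79.2 CPM among control members (71.4 to 87.6, 377 UMIs) and 386 CPM among members of the library labelled knockout (371 to 402, 2460 UMIs), 4.87-fold higher (4.37 to 5.45). It was higher in both kinds of cell (80.2 and 421 CPM in Xist cells and 67.8 and 209.9 CPM in Y cells). Plac8 measured 313 and 734 CPM, whereas Vcan, a matrix protein of young monocyte-derived cells, was at 94.3 and 103 CPM. Among 26 NF-kB-associated genes the median was 0.21, with Il1rn, the interleukin 1 receptor antagonist, at 62.6 and 216 CPM, Il1b at 112 and 126 CPM and Tnf at 28.1 and 32 CPM. Among 24 genes of alternative activation the median was 0.03, with Arg1 at 451 and 659 CPM and Chil3 at 107 and 157 CPM. Arg1 was higher in Xist cells (452 and 782 CPM) and lower in Y cells (468 and 381 CPM). Chil3 was close within each kind, at 203 and 188 CPM in Xist cells and 81.1 and 86.5 CPM in Y cells. Because monocyte transcripts such as Ly6c2 differed between the libraries too, their part in the other differences was not tested.

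The Ms4a genes, which encode small membrane proteins, and the antibody receptors held single genes that stood out. Of 9 Ms4a genes 8 had a ratio above 0 (43.8% of all genes did), with a median of 0.49, and only Ms4a4c was at least 2-fold higher (1.07% of all), at 122 and 482 CPM. Ms4a7 was lower in Xist cells of the library labelled knockout (973 and 697 CPM) and higher in Y cells (677 and 1229 CPM). Of 7 measured Fc receptor genes only Fcgr1, the high-affinity receptor, was at least 2-fold higher by the log2 ratio, at 253 and 543 CPM. Over all members Fcgr3 was at 492 and 514 CPM and the inhibitory Fcgr2b at 432 and 426 CPM, but the kinds of cell differed. Fcgr2b was at 402 and 500 CPM in Xist cells and 431 and 212 CPM in Y cells. Fcgr3 was at 481 and 561 CPM in Xist cells and 472 and 385 CPM in Y cells.

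Outside the lists, the genes with the highest ratios that agreed in direction between the kinds of cell were mixed. They included relatives of genes on the interferon-stimulated list, such as Ifit1bl1, Phf11a and Trim30c, and others such as Lyz1, Rhou and Flrt2. Ifit1bl1, an Ifit relative, measured 4.62 and 95.7 CPM, 20.7-fold higher (13.6 to 33.3). Cluster 7 held 82.5% of the Ifit1bl1 UMIs of the second library, and without it the ratio was 4.47-fold (2.73 to 7.71). Pydc3, a pyrin-domain gene, had 1 UMI in the control members and 270 in the others, a ratio of 202 with an interval of 35.9 to 7996. Lipg, endothelial lipase, measured 2.31 and 36.6 CPM and Isg20, an antiviral exonuclease, 9.66 and 77.8 CPM. Tnfsf10, the death ligand TRAIL, measured 3.36 and 15.2 CPM, and Mxd1, an antagonist of Myc, 32.6 and 109 CPM. Without cluster 7, Pydc3 had 1 and 109 UMIs, and the ratio was 4.18 for Lipg, 4.11 for Isg20 and 1.96 for Tnfsf10. The other 9 of these 15 genes were Ifi205, Lyz1, Rhou, Phf11a, Ddx60, Slc28a2, Wdfy1, Flrt2 and Trim30c, with log2 ratios from 1.29 to 2.07. Of these, the ratios of Ifi205, Phf11a, Ddx60 and Slc28a2 were also over 1.5 times smaller without cluster 7, at 3.61, 1.90, 2.25 and 2.26. Agreement between the kinds of cell means the same sign only, and some genes differed little or rested on few UMIs in Y cells. There Rhou was at 4.45 and 5.14 CPM (12 and 6 UMIs) and Lyz1 at 67.4 and 78.8 CPM. Trim30c had 14 and 8 UMIs and Tnfsf10 12 and 8 UMIs in Y cells.

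The genes with the lowest ratios outside the lists were lower by less. Ptgs1, cyclooxygenase 1, measured 17.9 and 4.08 CPM, 4.38-fold lower (2.79 to 7.08). Gpr34, a lysophosphatidylserine receptor, measured 23.3 and 7.06 CPM, 3.30-fold lower (2.32 to 4.78). The cation channel genes Tmem176b and Tmem176a, neighbors in the genome, measured 191 and 75.3 CPM and 111 and 46.3 CPM. St6gal1, which adds sialic acid to glycans, measured 31.7 and 11 CPM, and Cd33, a receptor for sialic acid, 77.7 and 33.6 CPM. Each was lower in both kinds of cell, though some rested on few UMIs in Y cells of the library labelled knockout. Ptgs1 (11.5 and 7.71 CPM in Y cells) had 9 UMIs there and Gpr34 (23.3 and 4.28 CPM) had 5. The rest were Wwc2, Abca9, Cdc14a, Ypel3, Klhl6, Pmepa1, Pccb, Ramp1 and Cep68, with log2 ratios from -1.34 to -0.73.

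The members were also set beside the monocytes of their own library. Of all measured genes 3.30% were at least 2-fold higher than in monocytes in both libraries and 2.71% lower. Both sets of cells were chosen by C1q, Ly6c2 and Chil3 levels, so these values are a description. Igf1, a growth factor, stood at 212 and 138 CPM in the members and 3.16 and 0.729 CPM in monocytes. Vcam1, an adhesion molecule, stood at 119 and 78.3 CPM in the members and 0 and 0.729 CPM in monocytes. Fcrls, an Fc receptor relative, stood at 178 and 98.8 CPM and, in monocytes, at 0.902 and 2.91 CPM. Monocytes led in Hp, haptoglobin (474 and 417 against 17.2 and 16.8 CPM in the members), and Plac8 (3393 and 4652 against 313 and 734 CPM). Of the lipid and lysosome list 13 of 31 genes were at least 2-fold above monocytes in both libraries and none below. Of the monocyte marker list none was above and 17 of 20 were below. Of the 23 matrix and growth factor genes 6 were above and 6 below.

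**Figure D4:**
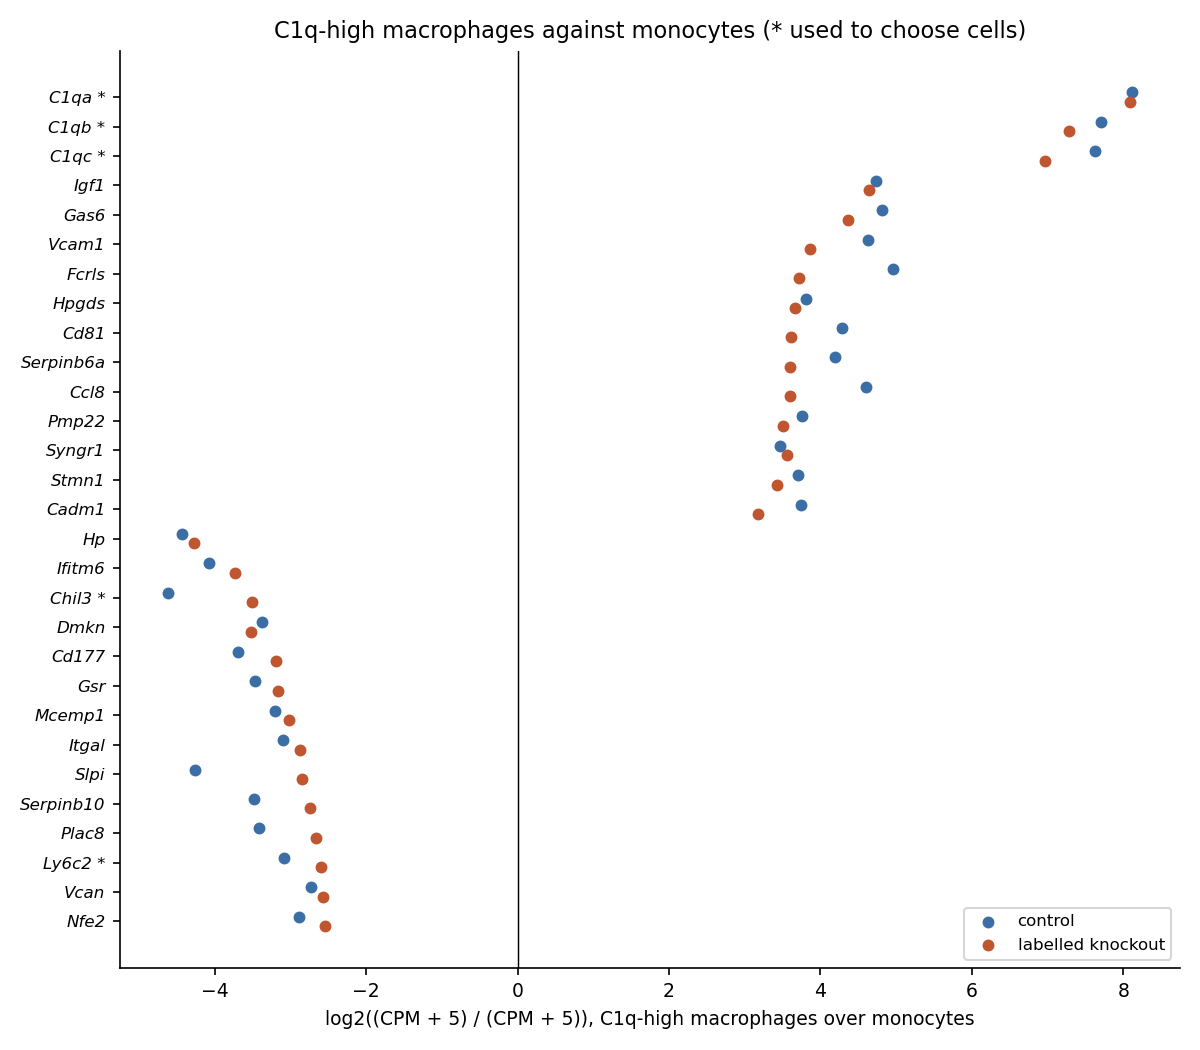
Log2 ratio of C1q-high macrophages over Ly6c2/Chil3 monocytes in the control library (blue) and the library labelled knockout (orange), for the 15 highest and 14 of the 15 lowest genes. An asterisk marks genes that chose the cells. Igf1, Gas6, Vcam1 and Fcrls lie on the macrophage side and Hp and Plac8 on the monocyte side in both libraries.

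The interferon-stimulated list differed between the libraries in monocytes as well. Its median log2 ratio was 1.55 in monocytes, 1.03 in the members and 0.63 in cycling C1q-high cells. In monocytes 46 of the 60 genes were at least 2-fold higher, against 2.31% of all measured genes there, and 0 were 2-fold lower, against 0.375% of all. The MHC class II list had a median of 0.54 in monocytes and -0.67 in cycling cells. H2-Aa in monocytes was 396 and 964 CPM, the direction opposite to that in the members. These differences between kinds of cell were not tested. Cycling cells were otherwise close to the members: 0.356% of measured genes were at least 2-fold higher in the members in both libraries and 1.93% lower. The lower ones were led by cell-cycle genes such as Ube2c and Cenpf, which follow from the rule. Among the higher ones were Arg1, arginase, with 451 and 659 CPM in the members and 107 and 139 CPM in cycling cells, and Fn1, fibronectin, with 939 and 659 CPM in the members and 224 and 175 CPM in cycling cells.

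Clustering of the members alone, without the interferon, cell-cycle and stress lists and the genes of the rule, gave 9 clusters. They are given by number and leading genes, and their defining genes are a description. Cluster 1 (304 cells) had the highest Gas6 level at 309.7 CPM with Ms4a7 at 1242 CPM, and led with Stmn1, Fcrls and Igfbp4. It also led with the division genes Birc5 and Ccnb2, which the limit on Mki67 and Top2a does not remove. Cluster 2 (244 cells) led with Ciita and Mgl2 and held the most H2-Aa (4404 CPM, against 408 in cluster 1) and Ccr2, the receptor for Ccl2 (1234 CPM). Cluster 3 (220 cells) led with Arg1 (2571 CPM, with 14 in cluster 1), Thbs1 and the hypoxia-responsive genes Vegfa, Egln3 and Hilpda.

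Cluster 4 (131 cells) led with Ednrb, F13a1, Ccl6, Ccl7 and Lpl and was the least distinct. Cluster 5 (89 cells) led with genes of lipid-laden macrophages, Fabp4, Mmp12 and Gpnmb (608 CPM, 167 in cluster 1), and the proton pump gene Atp6v0d2. Cluster 6 (81 cells) led with Cd300e, Acp5, Slamf9 and Cd72 and had the highest Ms4a7 level (1876 CPM). Ly6c2 was 13.4 CPM in cluster 1, 10.8 in cluster 5, 424 in cluster 2 and 455 in cluster 3, so this monocyte transcript was mainly in clusters 2 and 3 among these. Both libraries were present in each of clusters 1 to 6, with between 38 and 162 cells.

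The 3 small clusters stood apart. Cluster 7 (41 cells) led with Ifit1bl1, Rsad2, Lipg and Cmpk2, and had Ly6c2 at 1394 CPM and Ccl8 at 1418 CPM. The interferon lists were left out of the clustering, but related genes outside them, such as Ifit1bl1, and the chemokine Cxcl10 were not. The cluster is therefore not independent of interferon genes. All but 1 of its cells came from the library labelled knockout, so it may belong to that library rather than be a kind of cell, and its size is not compared. Without it the median of the interferon-stimulated list was 0.72 and the log2 ratio of Usp18 1.22. Cluster 8 (16 cells) led with the natural killer genes Gzma and Nkg7, and 6 of its cells were among the likely doublets. Cluster 9 (10 cells) led with Ccl22, Ccr7 and Fscn1, genes of migrating dendritic cells, with Flt3 at 92.9 CPM, and 4 of its cells were among the likely doublets. These clusters go against the name of macrophage and were kept in the sums as the rule has it.

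**Figure D5:**
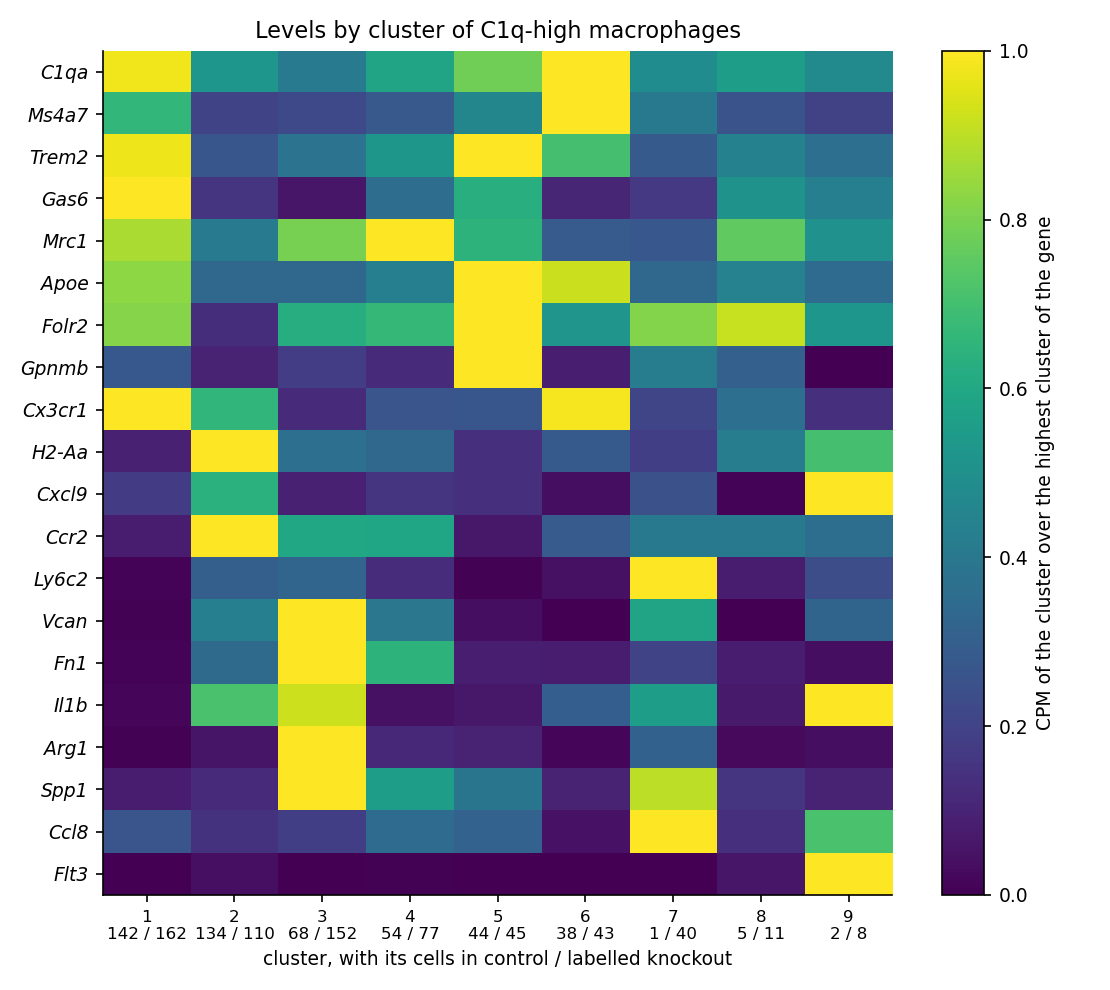
Level of 20 genes in 9 clusters of C1q-high macrophages, as CPM over the highest cluster of that gene, with the number of cells in the control library and the library labelled knockout under each cluster. Gas6 peaks in cluster 1, H2-Aa in cluster 2, Arg1 in cluster 3, Gpnmb in cluster 5 and Ms4a7 in cluster 6, and cluster 7 holds 1 and 40 cells.

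Within each of clusters 1 to 6 the interferon-stimulated list had a median above 0 when the kinds of cell were summed. Its median log2 ratio was 0.43 in cluster 1, 0.62 in cluster 2, 1.29 in cluster 3, 0.68 in cluster 4, 1.00 in cluster 5 and 0.29 in cluster 6. All genes measured in a cluster had medians between -0.05 and 0.06. Of these sums cluster 3 had the highest median and cluster 6 the lowest, but the kinds of cell were unevenly mixed. Cluster 3 held 15 and 123 Xist cells and 31 and 13 Y cells, with medians of 0.64 in Xist cells and 1.97 in Y cells. Cluster 1 had 0.93 and 0.44. Cluster 6 had -0.22 over 7 genes in Xist cells and 0.41 over 12 genes in Y cells, with 2 of 7 and 9 of 12 above 0. Within Xist cells the order was thus cluster 1, cluster 3 and cluster 6, and the median of cluster 6 lay below 0. In the summed cells of cluster 3 all 60 measured interferon genes had a ratio above 0, and in cluster 6 31 of 38 did. Usp18 in cluster 3 was 16.3 CPM (10 UMIs) in the control library and 75.1 CPM (99 UMIs) in the other.

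The MHC class II list had a median below 0 in each of clusters 1 to 6, from -0.85 in cluster 1 to -0.16 in cluster 2, the cluster with the highest levels. The kinds of cell were spread unevenly over the clusters. Of the 114 Y cells in the library labelled knockout, 57 fell in cluster 1, where class II levels are low, and 6 in cluster 2. In the control library 79 and 75 of 248 did. Within cluster 1 the summed class II level of Y cells was 8260 CPM in 79 control cells and 3632 CPM in 57 cells of the other library, a median log2 ratio of -1.93 over 9 genes. In Xist cells of the same cluster it was 5025 CPM in 28 control cells and 6450.1 CPM in 70, a median of 0.61. The split between the kinds of cell was therefore also present within cluster 1, but not in every cluster. Clusters 3 and 6 also held at least 10 cells of each kind in each library. In cluster 3 the medians were below 0 in both kinds (-0.17 in Xist cells and -0.71 in Y cells). In cluster 6 they were 0.29 and -0.47.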

How the data were processed

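The deposited values are UMI counts per gene and barcode, without normalization, as the file headers and whole-number values show; the authors made them with Cell Ranger 3.0.1 and mm10, per the submitters' processing notes. The libraries came from droplet 3′ single-cell RNA sequencing, per the labels' protocols. Raw counts were used throughout in Python 3.11.15 with scanpy 1.11.5, numpy 2.4.6, leidenalg 0.10.2, pandas 2.3.3, scipy 1.17.1, matplotlib 3.10.9 and scikit-learn 1.9.0. Control members held 4761560 UMIs and the other members 6373636, and genes with few UMIs are the least precise. Members were summed by library, levels were set per 1000000 UMIs, and 5 CPM were added before log2 ratios. Intervals are exact Poisson for levels, exact binomial for shares and conditional binomial for ratios, all at 95%.

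The members, gene lists and comparisons were chosen with earlier results of these data known. Genes outside the lists were named by rule: the 15 highest and 15 lowest ratios among genes with at least 100 UMIs, with the same direction in Xist and Y cells and no cell holding over 20% of the UMIs. In the comparisons with monocytes and with cycling cells, the 15 genes at each end were ranked by the smaller of the ratios in both libraries. Monocytes had at least 5 UMIs and 0.1% over Ly6c2 and Chil3, and at most 1 over Siglech and Ccr9, a limit set after plasmacytoid cells were seen among them. B cells had at least 5 Cd79 UMIs and at most 2 over Csf1r, Lyz2 and Cd68. Clusters used 1500 variable genes, 20 principal components, 15 neighbors and Leiden resolution 0.6, leaving out 5 lists (interferon-stimulated, interferon gamma, Isg15 pathway, cell cycle, stress), the rule's genes, Usp18, Lyz2, Lyz1 and technical genes. Clusters are led by the 8 highest genes found in at least 25% of their cells. Doublets were scored with Scrublet (0.8% per 1000 barcodes) and kept. Identifiers of 27645 of 27998 genes (98.7%) matched GENCODE M21, which gave gene coordinates. The scripts were tested on simulated data. Alternatives were other C1q, mitochondrial and UMI limits, a pseudocount of 1 CPM, thinning to 2000 UMIs, each kind of cell alone, and sets without likely doublets. Mx2, Cxcl11, Ear11, Lilrb3 and Sting1 had no entry under these names. Some genes are not reported here.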

Additional observations from a re-analysis of the deposited data

Results flagged for a closer look

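These results stand out because Xist cells and Y cells, or members and monocytes, differed in opposite directions between the libraries, or because a signal lay outside the main measurements. None of the opposite directions was tested. The MHC class II list had a median log2 ratio of 0.24 in Xist cells and -1.58 in Y cells, and of -0.48 in all members and 0.54 in monocytes. The lipid and lysosome list had -0.16 in Xist cells and 0.20 in Y cells. Mgl2, a lectin, had a ratio of 1.65 in Xist cells and -4.44 in Y cells, where 280 UMIs in the control library stood against 0. Ccl5, a chemokine of T and natural killer cells, had 2.44 and -2.28. Ccl22, a chemokine of mature dendritic cells, had 1.92 in Xist cells (0 and 62 UMIs) and -2.28 in Y cells (52 and 0 UMIs). Against a floor of 3 UMIs for each 0, Ccl22 was at least 4.34-fold higher in the former and at least 7.50-fold lower in the latter. Gzma, a granzyme of cytotoxic lymphocytes, had 1.72 (0 and 51 UMIs) and -2.24 (61 and 1 UMIs). These genes were high in few cells. Gzma was at 674 CPM in the 16 cells of cluster 8 and 1.00 CPM in the other members. In the 10 cells of cluster 9, Ccl22 was at 1207 CPM (2.08 in the others) and Ccl5 at 5077 CPM (76.3 in the others). Cluster 8 held 1 and 6 Xist cells and 4 and 0 Y cells. The part of these clusters in the opposite directions was not tested. Il1r2, the decoy receptor for interleukin 1, had 2.27 (1 and 108 UMIs) and -1.39 (22 and 0 UMIs). Nr1h3, the oxysterol receptor LXR alpha, had -1.03 and 1.44, and Timp1, an inhibitor of matrix proteases, 1.11 and -1.06.

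Outside the main measurements, 10 markers of mast cells, basophils and erythroid cells summed to 1.26 CPM in the control members and 423 CPM in the others. Hemoglobin genes gave 7 and 2675 UMIs, found in 5 and 20 members, and 98.8% of the latter lay in 5 cells. Xist itself was at 286 CPM in the control members and 765 CPM in the others.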

How the results depend on the processing

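No paired analysis was possible because each group has 1 library, and no library could be left out. The Usp18 log2 ratio (1.96) was 1.64 at 20 C1q UMIs and 0.5%, 2.54 in Xist cells, 0.37 in Y cells, 1.46 as the mean of both kinds and 1.22 without cluster 7. The log2 ratio of the share of members (0.72) was 1.15 in Y cells, 0.96 as the mean of both kinds and 0.43 over mononuclear phagocytes. The latter were barcodes with a minimum of summed Csf1r, Lyz2 and Cd68 UMIs. Lyz2 was far lower in the library labelled knockout, so this limit did not select cells alike in both libraries. The interferon-stimulated median (1.03) was 0.79 at the stricter C1q limit, 0.50 in Y cells and 0.72 without cluster 7. The MHC class II median (-0.48) turned to 0.24 in Xist cells and was -1.58 in Y cells, -0.67 as the mean of both kinds and -0.69 with at most 5% mitochondrial UMIs. Lyz2 (-8.80) was -9.52 in Y cells, -9.12 with 1 CPM added and -8.39 when thinned to 2000 UMIs, which left out 11 and 26 cells. Genes at least 2-fold higher numbered 111, but 205 in Xist cells, 196 with 1 CPM added and 70 without cluster 7. Genes at least 2-fold lower numbered 19, but 81 in Xist cells, 110 in Y cells, 83 with 1 CPM added and 58 when thinned, with low genes filtered within each set. The cause was not tested. The means of both kinds and the sets without clusters or hemoglobin were chosen after seeing the data. Of 273 values of the other lists, 29 lay outside the interval of the list as reported, carried to the log2(CPM + 5) scale as the median of its genes' bounds. The median of all genes lay between -0.04 and -0.00 in each setting.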

Other observations

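Of 29 measured genes of checkpoint and costimulation 22 had a ratio above 0 in the members (43.8% of all measured genes did), with a median of 0.29 whose counting interval spanned 0 (-0.05 to 0.68). Il18bp, the decoy for interleukin 18, was the single gene at least 2-fold higher (1.07% of all genes were), at 16.2 and 42 CPM, but not without cluster 7 (a log2 ratio of 0.77). It was higher in Xist cells (17.1 and 45.6 CPM) and in Y cells (8.89 and 29.1 CPM). Siglec1, a sialic acid receptor, measured 22.9 and 47.5 CPM, and the interleukin 15 gene Il15 14.3 and 26.4 CPM. Cd86, a ligand of Cd28, was higher in Xist cells (65.2 and 119 CPM) and lower in Y cells (80.8 and 54.8 CPM). Vsir, which encodes the checkpoint protein VISTA, was lower, at 218 and 164 CPM.

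Among 23 genes of matrix and growth factors the median was 0.06. Mmp13, a collagenase, was the single gene at least 2-fold higher (1.07% of all measured genes were), at 5.67 and 37 CPM. Igf1 was lower, at 212 and 138 CPM, with 287 and 117 CPM in Xist cells and 194 and 212 CPM in Y cells. Genes of glycolysis and hypoxia showed small differences, mostly in 1 direction when all members were summed. There 25 of 27 were above 0 (43.8% of all genes), with a median of 0.26 and none 2-fold apart. In Xist cells 24 of 27 were above 0 (45.6% of all genes), with a median of 0.32. In Y cells 17 were (47.0% of all genes), with a median of 0.14 whose counting interval spanned 0 (-0.22 to 0.33). Ldha, lactate dehydrogenase, measured 683 and 859.8 CPM, and Slc2a1, a glucose transporter, 85.9 and 124 CPM. Among 21 cytosolic sensors and their adaptors, Zbp1 (75.2 and 221 CPM) and Ifih1 (42.4 and 99.5 CPM) were at least 2-fold higher (1.07% of all measured genes were). Both are sensors of nucleic acids and both are also on the interferon-stimulated list. Ifih1 was not 2-fold higher without cluster 7 (a log2 ratio of 0.77). Mavs, the adaptor of Ifih1, was at 21.6 and 15.4 CPM and Tmem173, which encodes STING, at 54 and 53 CPM.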
